A study of Homo sapiens with 6 samples.

Results

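Transcript levels were examined for 52 genes whose symbols begin with LINC, the prefix reserved for long intergenic noncoding RNAs. They were selected from 112 such symbols among 17471 listed genes because each had a TPM (the transcript's share of the library, from reads scaled by gene length) of at least 0.5 in 3 or more of 6 libraries. The libraries came from AN3CA, an established human endometrial cancer line that expresses *PAX2*, a paired-box transcription factor of the developing urogenital tract. Control cells carried the empty hairpin vector (shEV, genotype WT in the labels, 3 libraries), and knockdown cells carried a hairpin against *PAX2* (shPAX2, genotype PAX2 KD, 3 libraries). Both were lentivirally transduced and selected with puromycin, and a single 29-mer hairpin was described, so effects of that hairpin and of *PAX2* loss cannot be told apart. The labels do not say whether the libraries of a group came from separate cultures, and p-values measure only the spread between these libraries. The study's text elsewhere calls the AN3CA control scrambled.

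Long noncoding RNAs are transcribed and often spliced like messenger RNAs but carry no long open reading frame. Some act in the nucleus on nearby genes or on chromatin, others act in the cytoplasm by binding proteins or microRNAs, and for most the function is not known. Many are expressed at low levels and in few cell types. A LINC symbol is provisional: RefSeq now lists 43 of the 52 as lncRNA genes, 8 as protein-coding genes and 1 as a pseudogene, and 20 have been renamed. Here *LINC00657* is NORAD, an RNA that sequesters Pumilio proteins, *LINC00152* is CYTOR, *LINC00338* is SNHG20, a small nucleolar RNA host gene, *LINC00340* is CASC15, *LINC00263* is OLMALINC and *LINC00669* is MIR924HG, the host gene of the microRNA miR-924.

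Promoter windows from RefSeq (GRCh38.p14, 250 bases before to 50 bases after the gene start) were matched to 41 of the 52 genes. The windows of the 4 genes that fell most after knockdown are shown first, followed by NORAD, which is abundant and was not called. CpG pairs, the dinucleotides subject to DNA methylation, are in capitals.
LINC00669 (MIR924HG), chr18:39751946-39752245, minus strand: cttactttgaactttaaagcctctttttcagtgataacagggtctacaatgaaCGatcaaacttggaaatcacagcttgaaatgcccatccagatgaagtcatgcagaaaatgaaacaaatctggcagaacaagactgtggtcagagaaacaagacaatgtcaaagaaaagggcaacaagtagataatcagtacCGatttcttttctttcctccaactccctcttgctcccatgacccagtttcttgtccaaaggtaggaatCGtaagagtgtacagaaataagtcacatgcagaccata
LINC00426, chr13:30373865-30374164, minus strand: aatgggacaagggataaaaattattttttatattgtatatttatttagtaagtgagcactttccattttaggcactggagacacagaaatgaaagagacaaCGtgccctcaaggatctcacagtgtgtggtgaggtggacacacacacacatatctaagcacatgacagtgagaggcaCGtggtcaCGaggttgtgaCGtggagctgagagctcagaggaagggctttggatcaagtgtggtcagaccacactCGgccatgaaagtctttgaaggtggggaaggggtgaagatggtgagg
LINC00029, chr20:63036979-63037278, minus strand: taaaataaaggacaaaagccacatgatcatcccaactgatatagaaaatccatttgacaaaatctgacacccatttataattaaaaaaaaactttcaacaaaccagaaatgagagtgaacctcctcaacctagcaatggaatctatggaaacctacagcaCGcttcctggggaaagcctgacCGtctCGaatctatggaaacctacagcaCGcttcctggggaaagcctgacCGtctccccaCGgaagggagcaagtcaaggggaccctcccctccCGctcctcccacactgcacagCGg
LINC00263 (OLMALINC), chr10:100373326-100373625, plus strand: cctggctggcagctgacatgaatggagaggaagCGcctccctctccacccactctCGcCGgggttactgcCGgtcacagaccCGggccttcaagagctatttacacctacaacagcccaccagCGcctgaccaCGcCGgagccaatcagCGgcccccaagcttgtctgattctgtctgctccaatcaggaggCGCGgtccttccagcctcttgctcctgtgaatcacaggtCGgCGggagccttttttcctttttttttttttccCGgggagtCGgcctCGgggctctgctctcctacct
LINC00657 (NORAD), chr20:36050911-36051210, minus strand: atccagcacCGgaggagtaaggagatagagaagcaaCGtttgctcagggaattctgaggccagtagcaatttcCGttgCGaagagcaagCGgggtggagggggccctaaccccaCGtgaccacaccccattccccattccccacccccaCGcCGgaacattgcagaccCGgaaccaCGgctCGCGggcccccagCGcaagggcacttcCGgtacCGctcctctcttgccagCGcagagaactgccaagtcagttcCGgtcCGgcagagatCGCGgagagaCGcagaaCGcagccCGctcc

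The windows held 3, 5 and 8 CpG pairs in *LINC00669*, *LINC00426* and *LINC00029*, 16 in *LINC00263* and 23 in NORAD. Windows with at most 8 pairs made up 41.5% of the matched LINC genes and 42.1% of all 27305 RefSeq promoters. The median was 12 pairs in the LINC genes and 14 in all promoters. The letters GCGTGAC, taken as the core bound by the paired domain, were found on either strand in 0 of the 41 windows and in 2.61% of all promoters. The cAMP response element TGACGTCA, which reads the same on both strands, was found in 1 window, that of *LINC00630*, and in 1.98% of all promoters. TATAAA was found on either strand in 3 windows, those of *LINC00426*, *LINC00029* and *LINC00659*, and in 11.95% of all promoters. The mature miR-924, which RefSeq places within MIR924HG, is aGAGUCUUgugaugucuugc (seed, bases 2 to 8, in capitals), and MIR924 was not among the listed genes.

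The reads recovered from the TPM values gave a depth of 10778743 to 18302976 in shEV and of 19506926 to 29536918 in shPAX2, so depth and group moved together. On a principal component analysis the groups parted along the leading axis (66.4% of variance). *PAX2* itself stood at 4.03, 3.66 and 2.74 TPM in shEV and at 0.916, 0.723 and 1.17 TPM in shPAX2. The groups did not overlap, and its log2 fold change was -1.47 (SE 0.18, limma adjusted p = 0.000294). The labels give the cell type as epithelial. Of 12 epithelial markers 11 were listed and 1, *KRT18*, passed the level filter, and the summed level was 11.2 to 13.5 TPM in shEV and 12.5 to 18.2 TPM in shPAX2. The 10 mesenchymal markers, summed to 4966 to 5382 TPM in shEV and 4238 to 4414 TPM in shPAX2, most of it *VIM*. Of the 6 tested, *COL1A2*, a fibrillar collagen chain, was called lower (log2 fold change -1.11) and *SNAI2* was lower at the adjusted p alone, while *VIM*, *ZEB1*, *SPARC* and *COL1A1* did not pass. Their part in the LINC results was not tested. Of 7 leukocyte and endothelial markers 5 were listed, with sums of at most 0.300 TPM. The epithelial label was thus not borne out by its markers. In bulk RNA, fewer cells with a transcript and less RNA per cell cannot be told apart.

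After *PAX2* knockdown, *LINC00669*, *LINC00426*, *LINC00029* and *LINC00263* fell and *LINC00035* rose. A gene was called when the adjusted p was under 0.05 and the absolute log2 fold change, on the log2(TPM + 0.5) scale, was at least 1. The test was limma over all 13163 genes that met the same level filter. In all, 1 of 52 LINC genes was called higher, against 1.43% of all genes tested, and 4 were called lower, against 3.11%. Of these 5 calls, 4 concerned genes that met the filter in the libraries of 1 group alone, which had to differ, so these counts do not support a change of LINC genes as a class.

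*LINC00669* (MIR924HG; chromosome 18, 36786881 to 37380286, GRCh37, minus strand) was the gene with the largest fall. It stood at 2.69, 2.74 and 2.63 TPM in shEV, from 31, 52 and 51 reads. In shPAX2 it was listed at 0, 0 and 0.0477 TPM, a single read in replicate 3. The transcript was thus near the detection limit in every knockdown library and uniform among the controls. The log2 fold change was -2.63 (SE 0.15, limma adjusted p = 5.34e-06). The ratio of read rates, shEV over shPAX2, was 222 with an exact 95% counting interval of 39.2 to 8843. This interval and the others on reads cover counting error only.

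*LINC00426* (chromosome 13, 30914404 to 30951282, GRCh37, minus strand) fell from 2.93, 1.99 and 2.37 TPM in shEV to 0.0822, 0.140 and 0.129 TPM in shPAX2. The shPAX2 values rested on 2, 3 and 2 reads, against 25, 28 and 34 in shEV, and no shPAX2 library came near the lowest shEV library. Its log2 fold change was -2.24 (SE 0.17, limma adjusted p = 2.52e-05), and the ratio of read rates was 20.6 (exact 95% counting interval 9.59 to 52.8).

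*LINC00029* (chromosome 20, 61665569 to 61668380, GRCh37, minus strand) was lower in shPAX2 but rested on few reads. Its level was 1.06, 1.04 and 1.58 TPM in shEV, from 10, 16 and 25 reads. In shPAX2 it was 0.262, 0.254 and 0.0586 TPM, from 7, 6 and 1 reads. The groups did not overlap, shEV replicate 3 was the highest library and shPAX2 replicate 3 the lowest. The log2 fold change was -1.32 (SE 0.21, limma adjusted p = 0.00124). With a pseudocount of 1 in place of 0.5 it was -0.90, short of the fold threshold.

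*LINC00263* (OLMALINC) was the one gene of the 4 that was well expressed in both groups, and it lies on the chromosome of *PAX2*. It occupies chromosome 10 from 102132856 to 102213800 (GRCh37, plus strand), between *SCD* and *WNT8B*, and ends 281 kb before the start of *PAX2*. Its level was 35.6, 39.4 and 41.6 TPM in shEV and 19.97, 16.6 and 18.98 TPM in shPAX2, from 183 to 371 reads per library. Every knockdown library was thus well below every control. The mean fell to 47.6% of the shEV mean, with a log2 fold change of -1.05 (SE 0.09, limma adjusted p = 3.21e-05). The size sat close to the threshold: it was -0.94 under median-of-ratios scaling, -0.96 under quantile normalization and -0.98 without shPAX2 replicate 2, with the adjusted p at most 0.000586 in all alternatives.

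*SCD*, the stearoyl-CoA desaturase of fatty acid synthesis, lies 8273 bases upstream of *LINC00263* on the same strand and moved the other way. It stood at 579, 551 and 555 TPM in shEV and at 939, 927 and 910 TPM in shPAX2. Its log2 fold change was 0.72 (SE 0.05, limma adjusted p = 1.98e-05), past the adjusted p but not the fold threshold. The neighbouring pair thus changed in opposite directions.

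*LINC00035* (listed in RefSeq as the pseudogene BICDL3P; chromosome 7, 73149324 to 73150491, GRCh37, plus strand) was the one gene called higher. It was listed at 0 TPM in all 3 shEV libraries and at 0.691, 0.941 and 1.73 TPM in shPAX2, from 5, 6 and 8 reads. The log2 fold change was 1.65 (SE 0.25, limma adjusted p = 0.000925), a value that depends on the pseudocount. Set against a floor of 3 reads in each shEV library, its mean was at least 1.29-fold higher. It overlaps *ABHD11* on the opposite strand, whose log2 fold change was -0.13 (limma adjusted p = 0.389). As a pseudogene it may share reads with its parent gene, which was not tested.

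**Figure D1:**
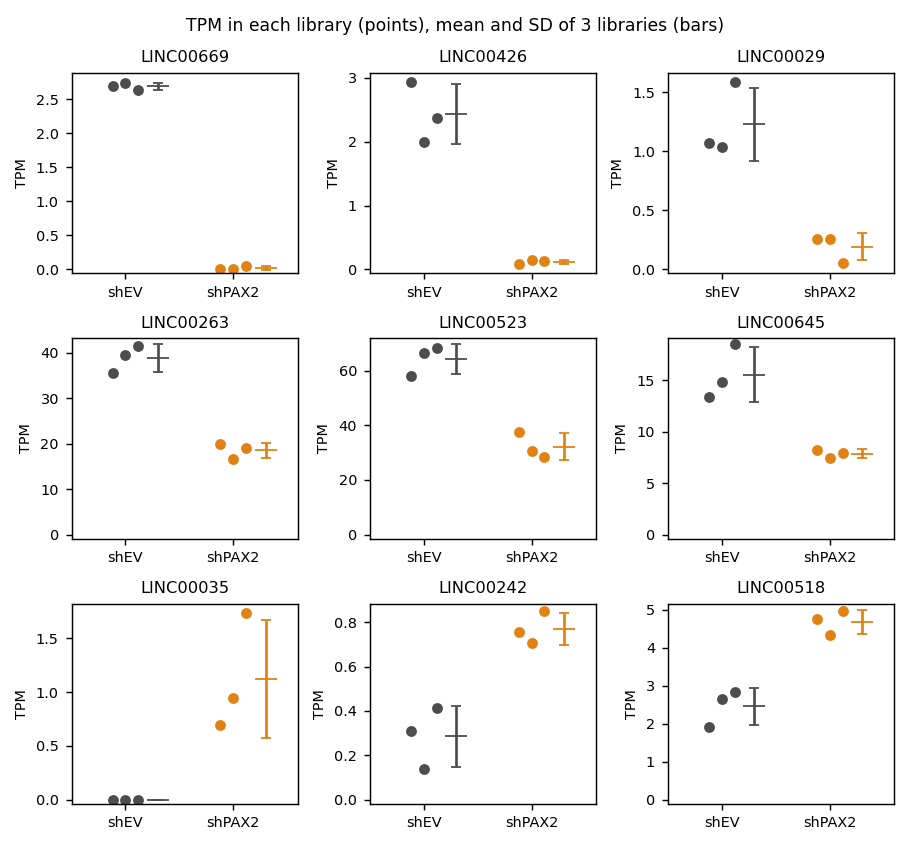
TPM in each library (points) for the 5 called LINC genes and 4 others past the adjusted p alone, with the mean and SD of 3 libraries per group beside the points. Each axis starts just below 0. The shEV and shPAX2 points do not overlap in any of the 9 panels, all drawn for genes already past the adjusted p. Over all genes tested, 54.9% showed no overlap. *LINC00669* and *LINC00035* are listed at or near 0 in 1 group.

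A pair of abundant or well-measured genes, *LINC00523* and *LINC00645*, fell just short of the fold threshold. *LINC00523* (chromosome 14, 101123587 to 101142406, GRCh37, plus strand) stood at 58.0, 66.6 and 68.1 TPM in shEV and at 37.7, 30.7 and 28.3 TPM in shPAX2. Its log2 fold change was -0.99 (SE 0.11, limma adjusted p = 0.000261), and it passed the fold threshold under 4 alternatives, for example at -1.02 with libraries thinned to the smallest. *LINC00645*, also on chromosome 14, stood at 13.3, 14.8 and 18.5 TPM in shEV and at 8.24, 7.41 and 7.97 TPM in shPAX2 (log2 fold change -0.93, SE 0.12, limma adjusted p = 0.000350). In both genes every shPAX2 library was below every shEV library.

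Without the fold threshold, 5 of the 52 LINC genes were higher and 19 lower at an adjusted p under 0.05, and 28 did not pass. Of all genes tested, 12.2% were higher and 30.5% lower. This split depended on the scaling: 8 LINC genes were higher and 12 lower under median-of-ratios scaling (all genes 21.8% and 19.6%), and 9 and 9 under quantile normalization (all genes 18.0% and 18.9%). On simulated reads, where far fewer genes were changed than passed here, the share of unchanged genes among such calls was above the nominal rate. That share need not carry over to these counts. No overlap between shEV and shPAX2 was seen for 30 of the 52, or 57.7%, against 54.9% over the whole table. The median log2 fold change was -0.32 over the 52 and -0.10 over all genes tested, and 16 were above and 36 below 0. The median depended on the scaling, at -0.25 against 0.01 for all genes under median-of-ratios scaling and -0.13 against 0.00 under quantile normalization. Among the 46 genes that reached 0.5 TPM in at least 1 library of each group, 3 were higher and 16 lower, with a median of -0.31. Levels also differed from the background, and among the 4168 genes tested with a mean under 10 TPM the median was -0.23, with 8.13% higher and 34.2% lower. The 39 LINC genes in that range had a median of -0.36.

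Genes annotated as lncRNA under other names gave a further reference. Of 320 tested, 5 (1.56%) were called higher and 9 (2.81%) lower, against 1.43% and 3.11% of all genes tested. At the adjusted p alone, 21 (6.56%) were higher and 85 (26.6%) lower, against 12.2% and 30.5%. The median log2 fold change was -0.21. A list of 39 widely studied lncRNAs, among them MALAT1, NEAT1, GAS5 and H19, had 31 tested members. None of these was called, 4 (12.9%) were higher and 11 (35.5%) lower at the adjusted p alone, and the median was -0.04.

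**Figure D2:**
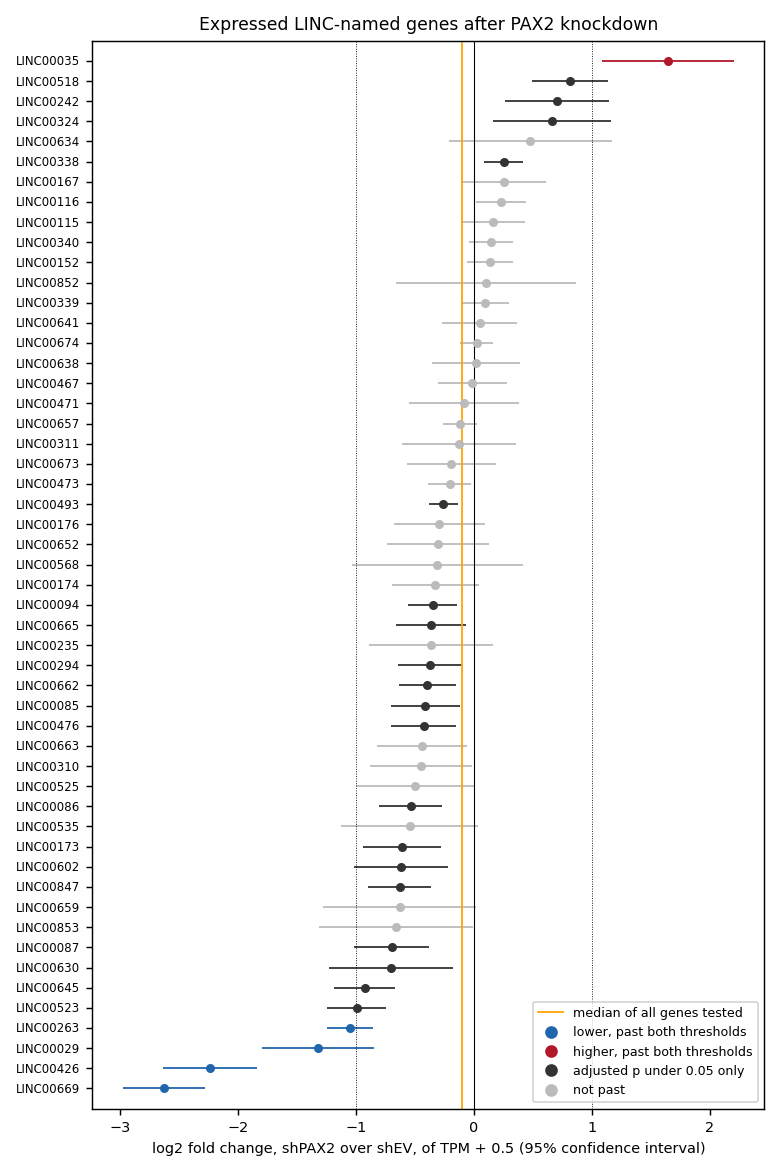
Log2 fold change of TPM + 0.5, shPAX2 over shEV (horizontal axis), with its 95% confidence interval for each of the 52 LINC genes, sorted; dotted lines mark the fold threshold of 1 and the orange line the median of all genes tested (-0.10). *LINC00669* and *LINC00426* lie farthest to the left and *LINC00035* is the only gene beyond 1 on the right.

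**Figure D3:**
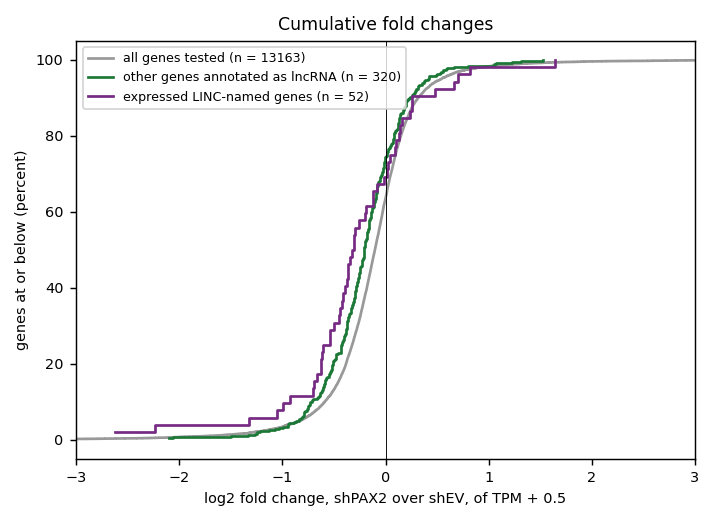
Cumulative percent of genes (vertical axis) at or below each log2 fold change (horizontal axis) for the 52 LINC genes, 320 other tested genes annotated as lncRNA and 13163 genes tested in all. The median of the LINC genes, -0.32, lies to the left of the others, -0.21 and -0.10, within a range where the 3 curves largely run together.

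Of the 5 genes of highest level, *LINC00523* is described above and the other 4 changed by smaller amounts. *LINC00493*, now SMIM26, which encodes a small mitochondrial protein, stood at 176, 185 and 181 TPM in shEV and at 147, 152 and 155 TPM in shPAX2. All shPAX2 values were lower, and the log2 fold change was -0.26 (SE 0.05, limma adjusted p = 0.00534), or -0.14 (limma adjusted p = 0.0590) under median-of-ratios scaling. NORAD (*LINC00657*) stood at 112, 111 and 126 TPM in shEV and at 106, 108 and 106 TPM in shPAX2, from 3215 to 8636 reads, the deepest coverage of the 52. Its log2 fold change was -0.12 with a 95% confidence interval of -0.26 to 0.02 and did not pass (limma adjusted p = 0.157). CYTOR (*LINC00152*), an RNA often raised in tumours, stood at 62.4, 53.4 and 54.4 TPM in shEV and at 55.8, 64.8 and 66.4 TPM in shPAX2. Its groups overlapped, with a log2 fold change of 0.13 (limma adjusted p = 0.240), or 0.25 (limma adjusted p = 0.0413) under median-of-ratios scaling. It overlaps *MIR4435-1* on the same strand, where reads could be assigned to either.

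Together with *LINC00523* and *LINC00473*, an RNA known to be induced by cAMP signalling, these genes held 63.0% of the TPM of the 52, and the top 3 held 51.2%. *LINC00473* stood at 28.7, 30.6 and 35.5 TPM in shEV and at 27.2, 26.9 and 27.8 TPM in shPAX2. Its difference did not pass (log2 fold change -0.20, limma adjusted p = 0.0713). Over the alternatives the log2 fold change ran from -0.27 to -0.09 and the limma adjusted p from 0.0314 to 0.377. Summed over the 52 genes, the level was 703, 710 and 738 TPM in shEV and 596, 601 and 603 TPM in shPAX2. As deposited, the sum was thus lower in every knockdown library, and in all libraries it was at most 0.0738% of the listed TPM. It was not taken under the other scalings, and the few most abundant genes weigh most in it. The other genes were low: the median of the mean levels was 2.88 TPM, against 20.4 TPM for all genes tested, and 33 had a mean under 5 TPM.

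Depth limited the low genes. In 14 of the 52 at least 1 library had under 10 reads, and 15 had at least 100 reads in every library. The median coefficient of variation in the former was 20.5% among shEV and 38.6% among shPAX2 libraries, and in the latter 7.10% and 8.95%. The former included *LINC00669*, *LINC00426* and *LINC00029*, which had few reads in shPAX2. Among the 15, 1 was higher and 8 lower at the adjusted p alone, against 12.2% and 30.5% of all genes tested. Their median log2 fold change was -0.26, and the genes tested were not matched to them for reads. For a low gene such as *LINC00568* (FALEC), with 5 to 17 reads, the interval of the log2 fold change ran from -1.04 to 0.42, and a change in either direction within it could not be told from none.

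**Figure D4:**
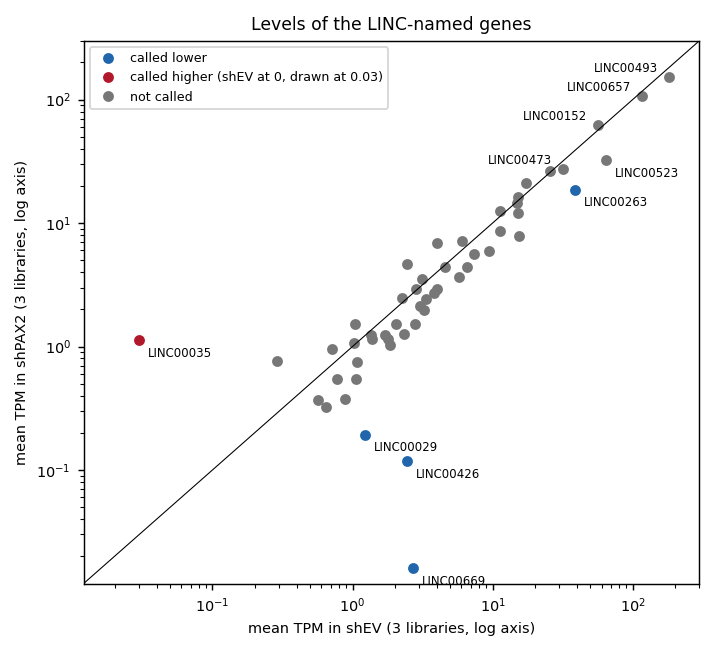
Mean TPM of each of the 52 LINC genes in shEV (horizontal, log axis) and shPAX2 (vertical, log axis), 3 libraries each, with the line of equal levels. Most genes lie close to the line, *LINC00669*, *LINC00426* and *LINC00029* lie far below it, and *LINC00035*, at 0 in shEV, is drawn at 0.03.

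Another 4 genes were higher at the adjusted p without reaching the fold threshold. *LINC00518* (chromosome 6, 10429488 to 10435248, GRCh37, minus strand) stood at 1.91, 2.66 and 2.83 TPM in shEV and at 4.76, 4.33 and 4.96 TPM in shPAX2. The groups did not overlap, and the log2 fold change was 0.82 (SE 0.14, limma adjusted p = 0.00209). *LINC00242* (chromosome 6, 170188886 to 170199645, GRCh37, minus strand) stood at 0.308, 0.140 and 0.412 TPM in shEV, from 4, 3 and 9 reads, and at 0.757, 0.706 and 0.848 TPM in shPAX2, from 28, 23 and 20 reads. It met the filter through shPAX2 alone, and its log2 fold change was 0.70 (limma adjusted p = 0.0178). Over the 12 alternatives in which *LINC00242* was tested, this ran from 0.46 to 1.46, the latter with voom on the recovered reads. The limma adjusted p ran from 0.00859 to 0.0697, so *LINC00242* did not pass in all of them. *LINC00324* stood at 3.91 to 4.12 TPM in shEV and at 4.43, 8.50 and 7.73 TPM in shPAX2, where replicate 1 was close to the controls (log2 fold change 0.66, limma adjusted p = 0.0393). It did not pass when any 1 library other than shPAX2 replicate 1 was left out, nor with voom or thinning. SNHG20 (*LINC00338*) stood at 16.8 to 18.2 TPM in shEV and at 19.6 to 22.5 TPM in shPAX2 (log2 fold change 0.25, limma adjusted p = 0.0202). Over the alternatives its limma adjusted p rose as high as 0.0762. SNHG20 overlaps *SEC14L1* on the same strand, where the assignment of reads was not checked.

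Chromosome 6 as a whole was shifted upward, with a median log2 fold change of 0.39 over 634 genes tested there and -0.11 over 12002 elsewhere. On it lie 5 LINC genes, of which 2, *LINC00518* and *LINC00242*, were higher and 1, *LINC00602*, lower at the adjusted p alone, against 62.1% higher and 7.26% lower of the 634. *LINC00602* overlaps *PDE10A*, a cyclic nucleotide phosphodiesterase, on the opposite strand. It stood at 1.89, 2.19 and 1.45 TPM in shEV and at 1.14, 0.790 and 1.14 TPM in shPAX2, a log2 fold change of -0.62 (limma adjusted p = 0.0210), and *PDE10A* had a log2 fold change of -0.90 (limma adjusted p = 0.00224). *LINC00602* did not pass under quantile normalization or thinning (-0.36 and -0.46), nor without shEV replicate 1 or 2 or shPAX2 replicate 2. CASC15 (*LINC00340*) stood at 10.5 to 12.03 TPM in shEV and at 11.8 to 13.2 TPM in shPAX2 and did not pass (log2 fold change 0.14, limma adjusted p = 0.189), but passed the adjusted p under median-of-ratios scaling (0.25) and quantile normalization (0.33). *LINC00473* is the fifth, and in RefSeq it overlaps *PDE10A* on the same strand, where reads could be assigned to either. The part of the chromosome-wide shift in these values was not tested.

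The 8 symbols that now name protein-coding genes included 5 that were lower and 0 that were higher at the adjusted p alone, against 30.5% and 12.2% of all genes tested, and none was called. Under median-of-ratios scaling and under quantile normalization it was 2 lower and 1 higher. They are micropeptide genes in part. *LINC00116*, now MTLN, which encodes mitoregulin of the mitochondrial membrane, stood at 5.52, 6.01 and 6.57 TPM in shEV and at 7.55, 7.06 and 6.90 TPM in shPAX2. Its groups did not overlap, and it missed the threshold (log2 fold change 0.23, limma adjusted p = 0.0743) but passed the adjusted p under median-of-ratios scaling (0.34, limma adjusted p = 0.0196) and quantile normalization (0.45, limma adjusted p = 0.00468). *LINC00094*, now BRD3OS, which overlaps *BRD3* on the opposite strand, stood at 14.7, 15.4 and 15.7 TPM in shEV and at 10.4, 12.2 and 13.2 TPM in shPAX2 (log2 fold change -0.35, limma adjusted p = 0.0147). *LINC00085*, now SPACA6, a sperm membrane protein needed for fertilization, stood at 2.996 to 3.66 TPM in shEV and at 2.14 to 2.64 TPM in shPAX2 (log2 fold change -0.41, limma adjusted p = 0.0292). *LINC00085* did not pass under either other scaling, thinning, voom or the replicate block (-0.14 to -0.45, limma adjusted p = 0.0648 to 0.375). *LINC00094* did not pass under median-of-ratios scaling (-0.24) or quantile normalization (-0.18).

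*LINC00086* and *LINC00087* are the near-identical pair SMIM10L2A and SMIM10L2B on the X chromosome, and which symbol is which copy was not resolved. *LINC00086* stood at 6.09, 6.71 and 6.79 TPM in shEV and at 5.03, 4.40 and 3.71 TPM in shPAX2 (log2 fold change -0.53, limma adjusted p = 0.00667). *LINC00087* stood at 3.32, 2.54 and 2.52 TPM in shEV and at 1.61, 1.53 and 1.42 TPM in shPAX2 (log2 fold change -0.70, limma adjusted p = 0.00423). Both were lower in every knockdown library, although under quantile normalization *LINC00086* had an adjusted p of 0.0507 in limma, and since reads can be split between the copies they are not independent. *LINC00634* (SMIM45) and *LINC00176* (C20orf204) did not pass, with log2 fold changes of 0.48 and -0.29 (limma adjusted p = 0.233 and 0.198). In a list of 10 LINC symbols known for such reassignment, 4 were tested, all of them already counted among the coding symbols above. Of these, 3 were lower at the adjusted p alone, the pair and *LINC00493*, against 30.5% of all genes tested.

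Nearest coding genes were compared with the LINC genes next to them. Of 50 LINC genes with a tested coding neighbour, 27 had a log2 fold change of the same sign as the neighbour. Within 10 kb it was 13 of 26. None of the 49 neighbours was called, against 1.43% of all genes tested called higher and 3.11% lower. At the adjusted p alone, 7 (14.3%) were higher and 14 (28.6%) lower, against 12.2% and 30.5%. Pearson's r across the 50 pairs was 0.14, given as a description only, since the pairs share libraries and some share a neighbour. The neighbours of the other genes called lower had smaller log2 fold changes: *KATNAL1*, a microtubule-severing protein 32716 bases from *LINC00426*, by -0.20 (limma adjusted p = 0.0622), *GID8* near *LINC00029* by -0.18 (limma adjusted p = 0.0474) and *KIAA1328*, 1974746 bases from *LINC00669*, by -0.52 (limma adjusted p = 0.00960). Over the alternatives, the limma adjusted p rose as high as 0.431 for *GID8* and 0.0960 for *KIAA1328*. For *KATNAL1* it fell as low as 0.0401. By annotation, 13 of the 52 overlapped another tested gene, 6 of them on the same strand.

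**Figure D5:**
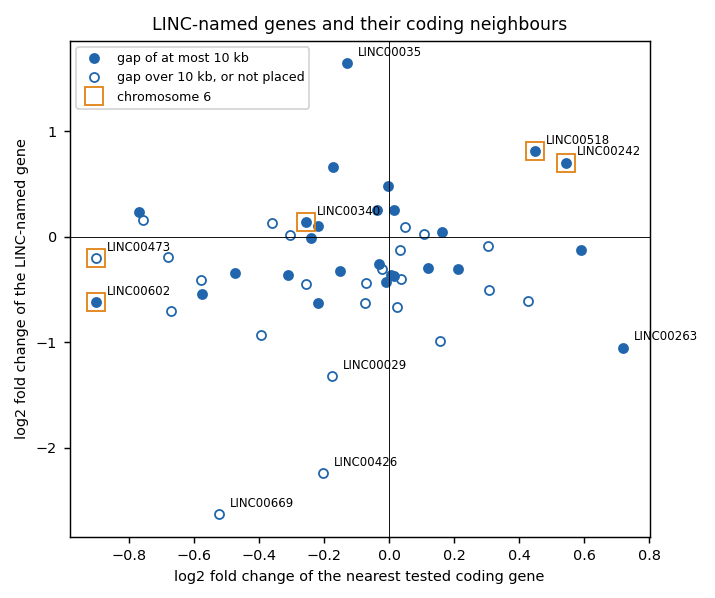
Log2 fold change of each LINC gene (vertical axis) against that of its nearest tested coding gene (horizontal axis), with filled points for gaps of at most 10 kb and squares for chromosome 6. *LINC00263* lies farthest from the origin at the lower right, where the LINC gene fell (-1.05) and its neighbour *SCD* was higher (0.72).

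Values close to the level filter were small counts. Just inside it by the third-highest TPM were *LINC00652*, *LINC00525* and *LINC00176*, at 0.536, 0.559 and 0.657. Just outside were *LINC00441*, *LINC00574* and *LINC00552*, at 0.484, 0.433 and 0.395. Of the 60 LINC symbols below the filter, 32 had at most 3 reads, as recovered, in every library and 0 had no read at all. With no filter, 1 of the 60 genes below the level, *LINC00668*, was called (log2 fold change 1.30, limma adjusted p = 0.00610), against 1.12% of all genes called higher and 2.41% lower in that fit. At an adjusted p under 0.05, 5 of the 60 were higher and 3, *LINC00552*, *LINC00640* and *LINC00629*, lower (log2 fold changes -0.53, -0.47 and -0.35), against 8.72% and 21.8% of all genes.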

How the data were processed

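The authors deposited TPM values per gene for 6 libraries of stranded total RNA. The submitters' processing notes name bcl2fastq, STAR, Subread, featureCounts, edgeR and hg19 (GRCh37), and the settings are not given in the sources used here. Within each gene the TPM values were whole-number multiples of 1 unit in 100% of 17471 genes (relative tolerance 1e-09, largest deviation 7.15e-14). This gave the reads and the gene length in bases, up to a common whole factor. The smallest whole numbers with a whole length were taken, so a gene read in few libraries may have had more reads. Depth was 10778743 to 29536918 reads per library. The level filter (0.5 TPM or more in 3 or more libraries) left 13163 genes for limma 3.58.1 under R 4.3.3. Values were transformed as log2(TPM + 0.5), a linear model was fitted with lmFit, and variances were moderated by eBayes with its trend and robust options. The contrast was shPAX2 minus shEV, 3 libraries each, two-sided, and p-values were adjusted by Benjamini-Hochberg over the 13163 genes. A call needed both an adjusted p below 0.05 and a log2 fold change of 1 or more in either direction. An exact permutation test of 3 against 3 libraries cannot go below p = 0.1 and was not used. The fit was checked on simulated reads in which a small set of genes was changed by set factors, with the same dispersion for every gene. There, unchanged genes made up more of the genes past the adjusted p than the nominal rate.

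Symbols were placed with GENCODE release 44 on GRCh37 for 48 of the 52 LINC genes. Names and promoters came from RefSeq (GRCh38.p14). The LINC genes, gene lists and naming rule were chosen with earlier results of these data known. Named were the called genes and their nearest coding genes, the 5 highest in level, those now protein-coding, the extremes of chromosome 6, those next to the level filter and *PAX2*; *LINC00645*, *LINC00324*, *LINC00338*, *LINC00568*, *LINC00630*, *LINC00659*, EMX2OS and the genes below the filter that are named were picked after their values were seen. Other pseudocounts, filters, scalings, limma voom on the recovered reads, thinning, the replicate block and leaving out each library were tried.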

Additional observations from a re-analysis of the deposited data

How the results depend on the processing

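The number of LINC genes called higher was 2 with a pseudocount of 0.1, with no filter, under quantile normalization and with limma voom on the recovered reads, 0 with a filter at 1 TPM and 5 without the fold threshold, where it was 1 as reported. Leaving out 1 library gave 0 to 1, with 0 without shPAX2 replicate 1, 2 or 3. The number called lower, reported as 4, was 6 with a pseudocount of 0.1 and with thinning, and 5 with limma voom on the recovered reads. It was 3 with a pseudocount of 1, under median-of-ratios scaling and under quantile normalization. Without the fold threshold it was 19. When 1 library was left out it was 1 to 5, with 1 without shEV replicate 2 or 3. With a library left out, genes expressed in that group alone no longer met the filter of 3 libraries, so they were not tested. Over all genes, 1612 were higher and 4017 lower without the fold threshold, and leaving out 1 library moved the count called higher from 188 to between 100 and 198 (100 without shPAX2 replicate 2; 104 without replicate 3). With a replicate block, 1 LINC gene was called higher and 4 lower, and 186 and 402 of all genes. Same-numbered libraries did not deviate together (r = -0.05, 0.08 and 0.00), so no pairing by number was visible. This does not show that the samples were unpaired. For *PAX2* and the LINC genes named by the rule no direction turned under the alternatives run. Genes just below the filter were fitted with no filter alone. Of the 5 coding neighbours of called genes, *SCD*, *KATNAL1*, *GID8* and *KIAA1328* kept their direction, and *ABHD11* ranged from -0.195 to 0.00155.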

Other observations

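Of the LINC genes below the level filter, *LINC00668* and *LINC00589* were among those with reads in shPAX2 alone. The others with reads in a single group, some in shPAX2 and some in shEV, had at most 3 recovered reads in any library. *LINC00668* had 0 reads in all 3 shEV libraries and 10, 28 and 13 reads in shPAX2, or 0.373, 1.19 and 0.761 TPM. *LINC00589* had 0 reads in shEV and 8, 7 and 5 reads in shPAX2. For *LINC00461* the shEV libraries held 1, 0 and 4 reads, against 28, 29 and 13 after knockdown. These genes were picked after their values were seen, and the shPAX2 libraries were deeper. In the list of widely studied lncRNAs, EMX2OS, which did not meet the filter, stood at 0.102, 0.0622 and 0.0608 TPM in shEV, from 2 reads each, and at 0.467, 0.632 and 0.563 TPM in shPAX2, from 26, 31 and 20 reads.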
